A study of Mus musculus with 12 samples.

Results

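Collagen hydroxylases and lysyl oxidases are the enzymes that modify collagen after it is made, and 10 of their genes were followed here: P4ha1, P4ha2 and P4ha3 (collagen prolyl 4-hydroxylases), Plod1, Plod2 and Plod3 (lysyl hydroxylases), and Lox, Loxl1, Loxl2 and Loxl3 (lysyl oxidases). They were chosen by symbol from the 24770 gene symbols measured, with earlier results of these data known. All 10 were among the 12311 genes that reached 1 FPKM (sequenced fragments of a gene relative to its length and to the library's total) in at least 3 libraries and were tested. The RNA came from GC-2, a mouse germ cell line that the labels call type B spermatogonia of genotype WT. One group received DMSO, the solvent control, and was kept in normoxia. Another received DMSO and hypoxia at 1% O2. The other two received MLN4924 at 1 µM, one in normoxia and one in hypoxia at 1% O2. Each condition lasted 24 h, and each of the 4 groups had 3 libraries, described as biological replicates. The cell type label counts up over the samples from GC-2 to GC-13, while every title names GC-2. MLN4924 (pevonedistat) blocks the enzyme that activates NEDD8, a small protein whose attachment to cullins switches on cullin-RING ubiquitin ligases.

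Collagen chains fold into a stable triple helix only after many of their prolines have been hydroxylated in the endoplasmic reticulum. Prolyl 4-hydroxylase does this as a complex of catalytic alpha subunits with the protein disulfide isomerase P4hb, and lysyl hydroxylases modify lysines of the same chains; both need oxygen, iron, ascorbate and alpha-ketoglutarate. Lysyl oxidases are copper enzymes that act outside the cell, where they oxidize lysines and hydroxylysines so that collagen and elastin become cross-linked. Several of these genes, among them P4ha1, P4ha2, Plod2 and Lox, are known targets of the hypoxia-inducible factor HIF-1, whose alpha subunit is degraded in normoxia through a cullin-RING ligase that contains the von Hippel-Lindau protein.

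Totals ran from 530452 to 557779 FPKM in 11 libraries and reached 633597 in DMSO hypoxia replicate 1. The mean Spearman correlation of that library with the others of its group was 0.926, against at least 0.977 within the other 3 groups. Values without it are given where it changes a call or a size by much. Of the 8 spermatogonial markers looked for, 5 were measured: the defining germ cell genes Kit, Ddx4 and Sohlh1 were under 1 FPKM in every library, while Gfra1 ranged from 1.14 to 6.23 FPKM and Uchl1 from 10.8 to 22.4 FPKM. The sum of the 5 ranged from 17.4 to 19.5 FPKM in DMSO normoxia, 15.2 to 25.9 in DMSO hypoxia, 15 to 17.4 in MLN4924 normoxia and 12 to 16.7 in MLN4924 hypoxia. The 3 measured markers of spermatocytes and spermatids and the 3 of endothelium were under 1 FPKM throughout. The summed level of 7 fibroblast and peritubular markers ranged from 685 to 698 FPKM in DMSO normoxia, 620.0 to 792 in DMSO hypoxia, 741 to 760.0 in MLN4924 normoxia and 854 to 912 in MLN4924 hypoxia, though Thy1, Dcn and Myh11 were under 1 FPKM throughout. Col1a1 (365 to 739 FPKM over all libraries) and Acta2 (24.4 to 423 FPKM) held most of that sum. Of the 4 tested, MLN4924 raised 1 and lowered 2 in normoxia (9.33% and 10.7% of all tested genes), with a median log2 change of -0.27. In hypoxia it also raised 1 and lowered 2 (12.2% and 13.3% of all tested genes), with a median of -0.52. The 4 measured Leydig markers summed to 11.3 to 12.1 FPKM in DMSO normoxia, 2.84 to 6.08 in DMSO hypoxia, 1.61 to 3.83 in MLN4924 normoxia and 3.29 to 6.63 in MLN4924 hypoxia, with Hsd3b1 and Cyp17a1 under 1 FPKM. The 6 Sertoli markers summed to 39.0 to 48.2, 42.5 to 49.6, 33.5 to 38.2 and 36.2 to 41.1 FPKM in the same order, with Amh and Fshr under 1 FPKM throughout. Clu was the largest of them at 22.2 to 33.7 FPKM, and Wt1 averaged 0.463 FPKM in DMSO normoxia. The 2 macrophage markers summed to 1.33 to 3.86 FPKM. The part of such cells in the results below was not tested. In bulk RNA, fewer cells of a type and less RNA per cell cannot be told apart. The deposited values hold no read counts, so the depth behind each value is unknown and no counting interval is given.

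Hypoxia raised most of these enzymes at the RNA level. With DMSO, 7 of 10 rose and 3 fell at an adjusted p under 0.05 (limma, log2(FPKM + 1), adjusted over all tested genes), where 13.8% of all tested genes rose and 19.4% fell. Fold changes throughout are of FPKM + 1. The genes that rose were P4ha1, P4ha2, Plod1, Plod2, Plod3, Lox and Loxl2, and those that fell were P4ha3, Loxl1 and Loxl3. With MLN4924, the same 7 rose (background 11.7%) and 0 fell (background 16.5%), both by the adjusted limma test and at an unadjusted p under 0.05. The median log2 change of the 10 was 0.99 in DMSO and 0.97 in MLN4924, beside -0.08 and -0.05 over all tested genes. These 2 contrasts have no library in common, and the sign was the same in both for 10 of 10 genes, beside 74.4% of all tested genes. Loxl3 entered that count with -0.01 ± 0.08 in MLN4924, a value whose sign changed under some alternative settings.

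MLN4924 lowered some of these genes and raised others. In normoxia it lowered P4ha1, P4ha2, Plod1 and Plod2 and raised Loxl3, which makes 4 falls (background 10.7%) and 1 rise (background 9.33%) among 10. In hypoxia it lowered Plod1, Plod2 and Loxl2 and raised Loxl1 and Loxl3, which makes 3 falls (background 13.3%) and 2 rises (background 12.2%). The median log2 change of the 10 was -0.17 in normoxia and -0.10 in hypoxia, beside -0.03 and -0.01 over all tested genes. The libraries of DMSO normoxia and DMSO hypoxia did not overlap for 10 of 10 genes, beside 45.2% of all tested genes, and those of MLN4924 normoxia and MLN4924 hypoxia for 9 of 10, beside 53.3%. The normoxic groups did not overlap for 9 of 10, beside 48.5%, and the hypoxic groups for 7 of 10, beside 38%.

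**Figure D1:**
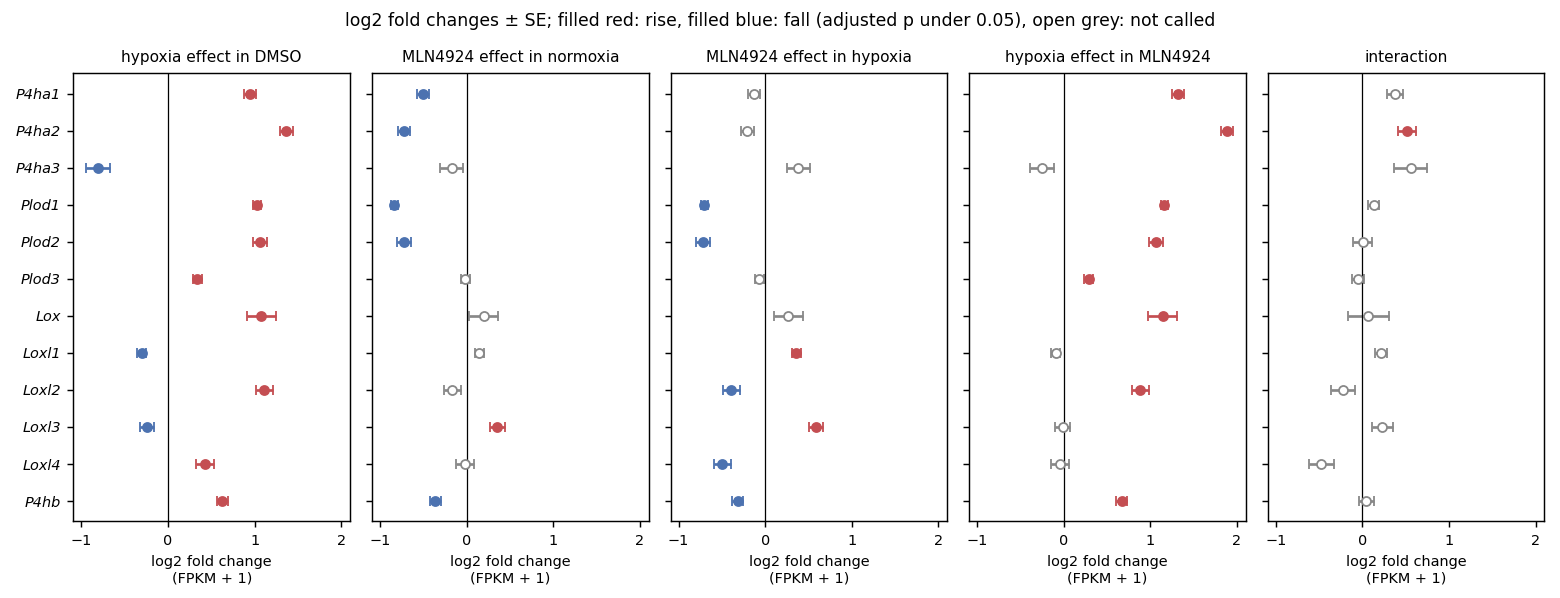
Log2 fold changes of FPKM + 1 with the limma standard error (SE) for the 10 genes and, outside the set, Loxl4 and P4hb, in 5 panels for the hypoxia effect in DMSO, the MLN4924 effects in normoxia and in hypoxia, the hypoxia effect in MLN4924 and the interaction (filled red, rise; filled blue, fall; open grey, adjusted p of 0.05 or more). The same 7 genes sit to the right of 0 in both hypoxia panels, and P4ha2 is the filled point among the 10 in the interaction panel.

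The prolyl 4-hydroxylase alpha subunits gave both the largest rise and the largest fall with hypoxia among the 10 genes in DMSO. The 250 bases before the RefSeq transcription start of each (GRCm38.p6) are shown because the family members moved in opposite directions in DMSO. Capitals mark ACGTG or GCGTG, the core letters of a hypoxia response element, on either strand (CACGT or CACGC as printed; CACGTG would hold overlapping matches on both strands). P4ha1 lies at chr10:59323046-59323295 on the + strand, P4ha2 at chr11:54100674-54100923 on the + strand and P4ha3 at chr7:100285270-100285519 on the + strand.
P4ha1: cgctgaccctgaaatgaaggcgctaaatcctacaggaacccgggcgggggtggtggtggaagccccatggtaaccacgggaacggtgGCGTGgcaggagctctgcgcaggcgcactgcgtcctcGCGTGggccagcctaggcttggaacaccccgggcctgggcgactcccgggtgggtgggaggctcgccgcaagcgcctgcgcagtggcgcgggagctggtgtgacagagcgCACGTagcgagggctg
P4ha2: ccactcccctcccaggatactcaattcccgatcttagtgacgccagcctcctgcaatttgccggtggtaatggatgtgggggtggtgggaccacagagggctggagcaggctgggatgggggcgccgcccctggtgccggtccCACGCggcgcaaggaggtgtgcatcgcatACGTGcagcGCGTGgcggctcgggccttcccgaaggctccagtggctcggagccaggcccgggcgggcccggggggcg
P4ha3: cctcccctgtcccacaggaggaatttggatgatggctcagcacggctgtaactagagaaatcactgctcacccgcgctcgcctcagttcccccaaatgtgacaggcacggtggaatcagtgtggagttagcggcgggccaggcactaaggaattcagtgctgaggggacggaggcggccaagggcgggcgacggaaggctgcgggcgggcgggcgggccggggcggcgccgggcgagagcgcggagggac
P4ha1 held 3 matches, starting 163, 126 and 16 bases before the start, and P4ha2 held 3, at 107, 78 and 69 bases. P4ha3 held 0 in this window. Of all 32851 windows of this length, 38.6% held at least 1 match and 6.58% held 3 or more; among windows of tested genes the shares were 56.9% and 12.1%. A match describes the letters only.

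P4ha1 encodes the alpha subunit of the type I enzyme. It measured 69.1, 73.0 and 72.6 FPKM in DMSO normoxia and 128, 137 and 151 FPKM in DMSO hypoxia. With MLN4924 it measured 51.9, 51.5 and 47.3 FPKM in normoxia and 121, 128 and 132 FPKM in hypoxia. Every hypoxic library was above every normoxic one, and within normoxia the MLN4924 libraries were the lower ones. Hypoxia raised P4ha1 1.92-fold in DMSO (log2 change 0.94 ± 0.07 SE, limma adjusted p = 5.09e-06) and 2.50-fold in MLN4924 (1.32 ± 0.07, adjusted p = 7.64e-07). MLN4924 lowered it in normoxia (log2 change -0.50 ± 0.07, adjusted p = 0.000531). In hypoxia the log2 difference was -0.13 ± 0.07 (adjusted p = 0.202) and the 2 groups overlapped; without DMSO hypoxia replicate 1 it was -0.18 and passed (adjusted p = 0.0436).

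P4ha2, the alpha subunit of the type II enzyme, had the largest hypoxia response of the 10 genes in both backgrounds. It measured 53.5, 64.2 and 60.9 FPKM in DMSO normoxia and 145, 157 and 163 FPKM in DMSO hypoxia. In the MLN4924 groups the values were 35, 34.5 and 37.2 FPKM in normoxia and 133, 139 and 130.4 FPKM in hypoxia. No 2 groups overlapped, and the order from low to high was MLN4924 normoxia, DMSO normoxia, MLN4924 hypoxia and DMSO hypoxia. Hypoxia raised P4ha2 2.58-fold in DMSO (log2 change 1.37 ± 0.07, adjusted p = 5.54e-07) and 3.69-fold in MLN4924 (1.88 ± 0.07, adjusted p = 8.25e-08). MLN4924 lowered it in normoxia (-0.72 ± 0.07, adjusted p = 7.91e-05). The last step of the order, between the hypoxic groups, missed the threshold at a log2 difference of -0.21 ± 0.07 (adjusted p = 0.0589), and without DMSO hypoxia replicate 1 it was -0.25 and passed (adjusted p = 0.0206).

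P4ha3, the alpha subunit of the type III enzyme, was the scarcest of the 10 genes in DMSO normoxia and went the other way. It measured 13.8, 14.0 and 13.9 FPKM in DMSO normoxia and 5.57, 8.38 and 8.94 FPKM in DMSO hypoxia. With MLN4924 the levels were 13.0, 12.4 and 11.3 FPKM in normoxia and 10.8, 9.35 and 10.2 FPKM in hypoxia. Both normoxic groups lay above both hypoxic groups, without overlap. In DMSO it fell 1.75-fold (log2 change -0.81 ± 0.14, adjusted p = 0.00132). The fall was -0.63 without DMSO hypoxia replicate 1, the lowest of the 12 libraries for this gene (adjusted p = 0.000154). In MLN4924 the log2 difference of -0.25 ± 0.14 missed the threshold (adjusted p = 0.202), and it passed without that library (adjusted p = 0.0128), although that library is in neither group, because the fit takes its spread from all 4 groups. The MLN4924 differences of -0.17 in normoxia (adjusted p = 0.432) and 0.38 in hypoxia (adjusted p = 0.0644) were not called. The second was 0.20 without DMSO hypoxia replicate 1 (adjusted p = 0.0714) and passed at 0.50 without DMSO hypoxia replicate 3 (adjusted p = 0.0277).

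The summed level of the 3 alpha subunits was 145 ± 7.65 FPKM in DMSO normoxia (SD, n = 3), 301 ± 21.9 FPKM in DMSO hypoxia, 98.0 ± 2.08 FPKM in MLN4924 normoxia and 271 ± 6.11 FPKM in MLN4924 hypoxia; without DMSO hypoxia replicate 1 the mean of its group was 312 FPKM. P4ha1 held the largest share of that sum in normoxia, 49.4% with DMSO and 51.2% with MLN4924. In hypoxia P4ha2 was the largest on average, at 51.5% with DMSO against 41.0% in normoxia, and at 49.5% with MLN4924 against 36.3%. In MLN4924 hypoxia the ranges of the P4ha1 share (45.7% to 48.5%) and the P4ha2 share (47.8% to 50.4%) overlapped. Replicate 3 of that group had 132 FPKM of P4ha1 and 130.4 FPKM of P4ha2. The ranges of the P4ha2 share did not overlap between normoxia and hypoxia in either background. The share of P4ha3 went from 9.60% to 2.51% with DMSO and from 12.5% to 3.73% with MLN4924.

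P4hb, the partner subunit, which also works as a protein disulfide isomerase and is not one of the 10, was far more abundant than the alpha subunits. It averaged 716 ± 17.1 FPKM in DMSO normoxia, 1109 ± 99.5 FPKM in DMSO hypoxia, 558 ± 3.67 FPKM in MLN4924 normoxia and 888 ± 16.7 FPKM in MLN4924 hypoxia. Hypoxia raised it less than P4ha1 and P4ha2 in size, by 0.63 ± 0.06 on the log2 scale in DMSO (adjusted p = 4.66e-05) and 0.67 ± 0.06 in MLN4924 (adjusted p = 3.82e-05); the difference between genes was not tested. The summed alpha subunits came to 20.3% ± 1.40 of P4hb in DMSO normoxia and 27.4% ± 4.03 in DMSO hypoxia, where replicate 1 had 22.8% and the other two averaged 29.7%. With MLN4924 these ratios were 17.6% ± 0.486 and 30.5% ± 0.565.

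**Figure D2:**
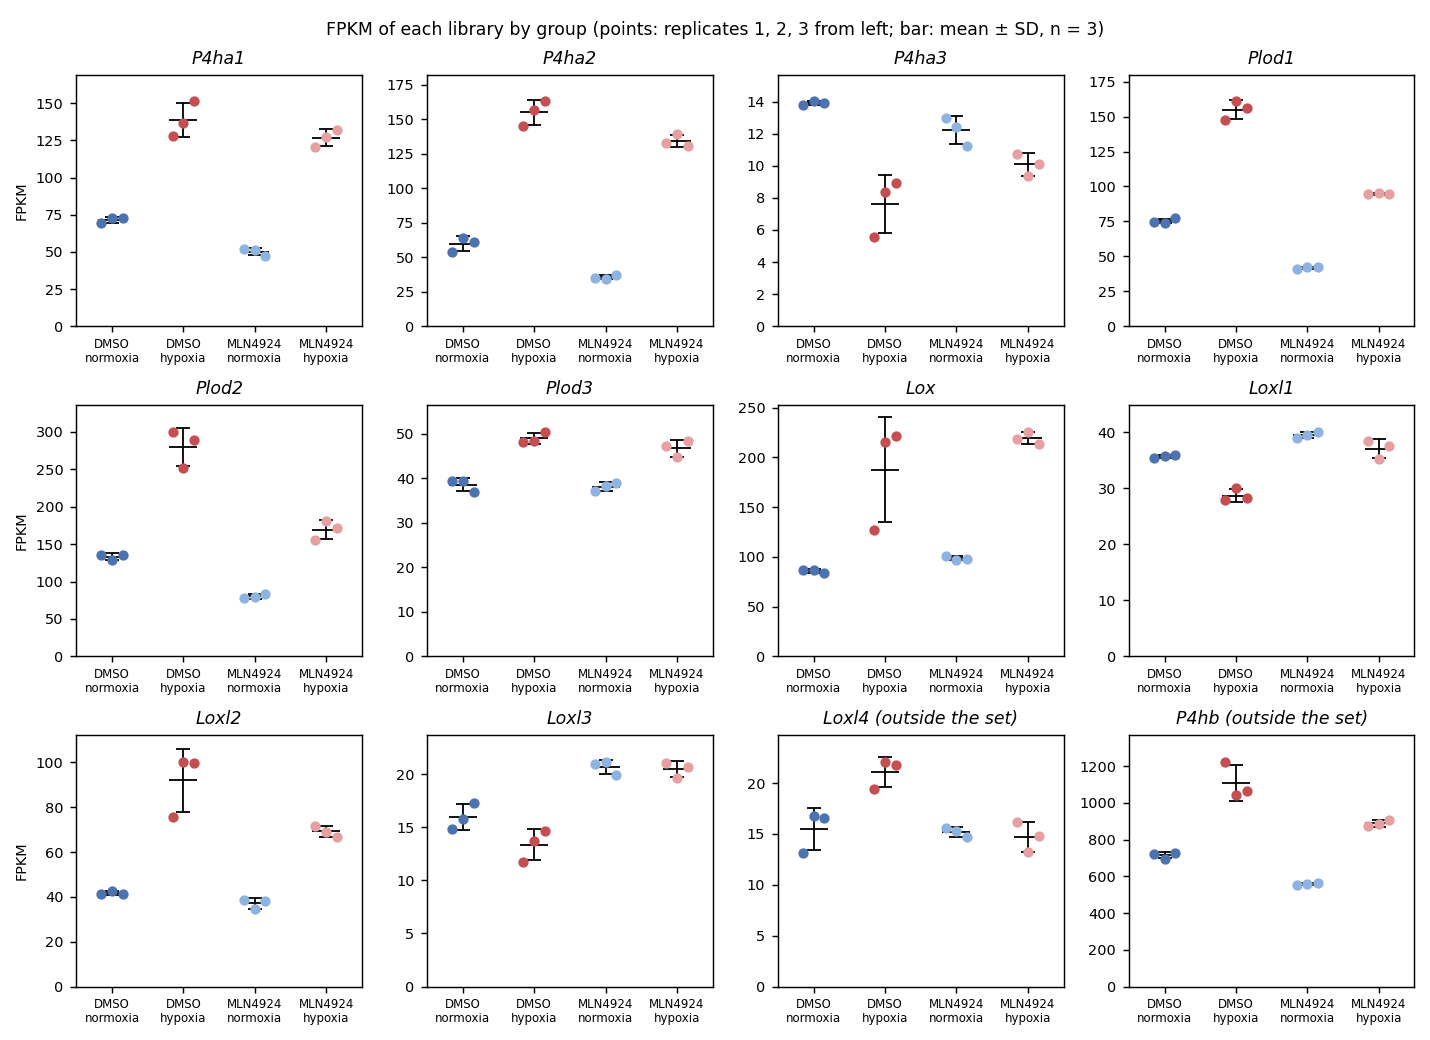
FPKM of every library for the 10 genes and, outside the set, Loxl4 and P4hb, by group (points, replicates 1, 2 and 3 from left to right; bars, mean ± SD, n = 3; the FPKM axis starts at 0 and differs between panels). P4ha1, P4ha2, Plod1 and Plod2 step down with MLN4924 in normoxia and up with hypoxia, while DMSO hypoxia replicate 1 lies below its group in P4ha3, Lox and Loxl2.

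The lysyl hydroxylases Plod1 and Plod2 rose with hypoxia in both backgrounds and fell with MLN4924 in both oxygen conditions. The 250 bases before the start of Plod1 (chr4:147936777-147937026, - strand, GRCm38.p6) and of Plod3 (chr5:136986769-136987018, + strand) are shown with the same capitals, because these genes rose by unequal amounts.
Plod1: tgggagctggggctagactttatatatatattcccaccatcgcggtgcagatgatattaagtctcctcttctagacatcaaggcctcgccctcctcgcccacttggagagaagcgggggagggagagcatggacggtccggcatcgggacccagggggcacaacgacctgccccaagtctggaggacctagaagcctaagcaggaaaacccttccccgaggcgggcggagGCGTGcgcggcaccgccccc
Plod3: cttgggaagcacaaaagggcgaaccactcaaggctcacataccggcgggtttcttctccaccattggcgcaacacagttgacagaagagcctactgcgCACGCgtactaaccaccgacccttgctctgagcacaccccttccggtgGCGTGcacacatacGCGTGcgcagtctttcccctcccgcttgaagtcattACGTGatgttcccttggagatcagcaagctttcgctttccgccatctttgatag
Plod1 held 1 match, 20 bases before the start, and Plod3 held 4, starting 152, 104, 90 and 54 bases before it. Windows were at hand for 5 of the 10 genes, P4ha1, P4ha2, P4ha3, Plod1 and Plod3. A match was held by 4 of these, beside 56.9% of windows of tested genes. A link between matches and the size of a rise was not tested.

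Plod1 hydroxylates lysines in the helical part of collagen. It measured 74.8, 73.9 and 77.1 FPKM in DMSO normoxia and 148, 161 and 156 FPKM in DMSO hypoxia. The MLN4924 libraries measured 40.9, 42.3 and 42.2 FPKM in normoxia and 94.3, 95.5 and 94.4 FPKM in hypoxia. No 2 groups overlapped, and the order was MLN4924 normoxia, DMSO normoxia, MLN4924 hypoxia, DMSO hypoxia. Hypoxia raised Plod1 2.04-fold in DMSO (log2 change 1.03 ± 0.05, adjusted p = 1.44e-07) and 2.24-fold in MLN4924 (1.16 ± 0.05, adjusted p = 8.84e-08). MLN4924 lowered it 1.78-fold in normoxia (-0.83 ± 0.05, adjusted p = 1.47e-06) and 1.63-fold in hypoxia (-0.70 ± 0.05, adjusted p = 4.41e-06).

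Plod2 hydroxylates lysines in the telopeptides, the short ends of collagen where cross-links form. In DMSO normoxia it was the most abundant of the 10 genes per unit of length, at 136, 128 and 136 FPKM, and in DMSO hypoxia it measured 300.4, 251 and 289 FPKM. With MLN4924 it measured 77.5, 80.0 and 83.9 FPKM in normoxia and 155, 181 and 172 FPKM in hypoxia. The groups kept the order of Plod1, with no overlap. Hypoxia raised Plod2 2.09-fold in both backgrounds (log2 change 1.06 ± 0.08 in each, adjusted p = 5.60e-06 in DMSO and 6.58e-06 in MLN4924). MLN4924 lowered it 1.65-fold in both oxygen conditions (log2 change -0.72 ± 0.08 in each, adjusted p = 0.000128 in normoxia and 0.000131 in hypoxia).

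Plod3, which carries glycosyltransferase activity besides lysyl hydroxylase activity, moved least of the genes that rose. It measured 39.3, 39.5 and 36.9 FPKM in DMSO normoxia and 48.1, 48.4 and 50.4 FPKM in DMSO hypoxia. In the MLN4924 groups the values were 37.2, 38.1 and 39.0 FPKM in normoxia and 47.2, 44.7 and 48.3 FPKM in hypoxia. The 2 normoxic groups overlapped, as did the 2 hypoxic groups, and all hypoxic libraries were above all normoxic ones. Hypoxia raised Plod3 1.26-fold in DMSO (log2 change 0.34 ± 0.05, adjusted p = 0.000688) and 1.22-fold in MLN4924 (0.29 ± 0.05, adjusted p = 0.00221). The MLN4924 differences were -0.02 ± 0.05 in normoxia (adjusted p = 0.887) and -0.07 ± 0.05 in hypoxia (adjusted p = 0.369).

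The 3 lysyl hydroxylases summed to 247 ± 4.85 FPKM in DMSO normoxia (SD, n = 3), 484 ± 20.4 FPKM in DMSO hypoxia, 160.3 ± 4.76 FPKM in MLN4924 normoxia and 311 ± 12.8 FPKM in MLN4924 hypoxia. Plod2 held the largest share in every group, from 50.2% in MLN4924 normoxia to 57.8% in DMSO hypoxia. The share of Plod3 was 15.6% in DMSO normoxia and 10.1% in DMSO hypoxia, and 23.8% in MLN4924 normoxia and 15% in MLN4924 hypoxia. The level of Plod2 over that of Plod1 had group means from 1.77 in DMSO normoxia to 1.92 in MLN4924 normoxia, and single libraries ran from 1.56 to 2.04, both in DMSO hypoxia.

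**Figure D3:**
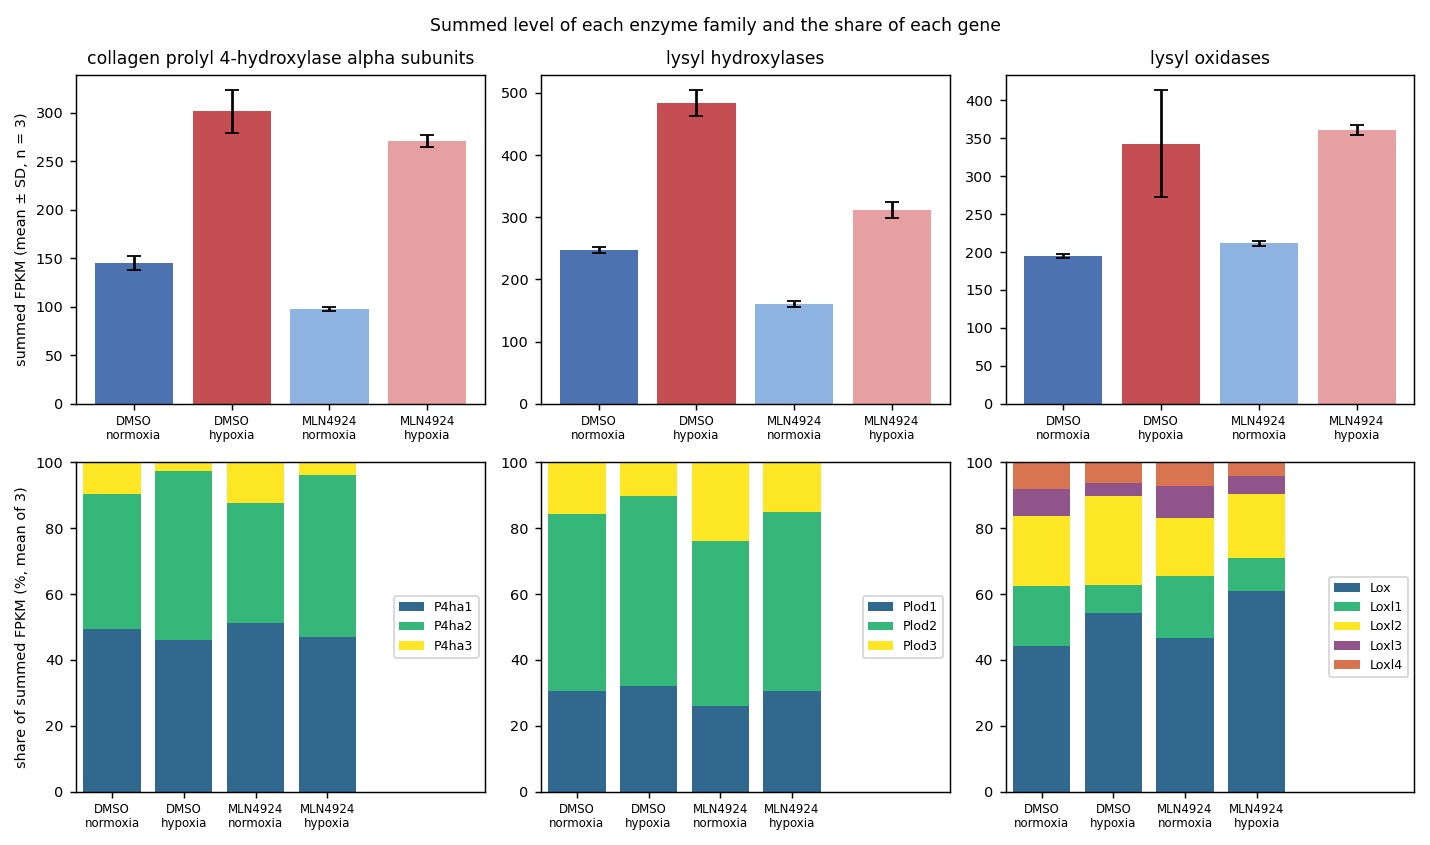
Top, summed FPKM of the 3 families by group (bars, mean of 3 libraries; error bars, SD). Bottom, mean share of each gene in its family sum in percent, with Loxl4 counted among the lysyl oxidases; the share of P4ha2 is larger in hypoxia than in normoxia, and so is the share of Lox, at 54.1% against 44.2% with DMSO.

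Lox, the founding lysyl oxidase, rose with hypoxia and had no called change with MLN4924. It measured 87.1, 87.0 and 84.0 FPKM in DMSO normoxia and 127, 216 and 221 FPKM in DMSO hypoxia. With MLN4924 the levels were 101, 97.3 and 97.9 FPKM in normoxia and 218, 226 and 214 FPKM in hypoxia. DMSO hypoxia replicate 1 was the low one of its group, by 0.78 on the log2 scale below the mean of the other 2, and still above every normoxic library. Hypoxia raised Lox 2.11-fold in DMSO (log2 change 1.07 ± 0.17, adjusted p = 0.000829) and 2.21-fold in MLN4924 (1.14 ± 0.17, adjusted p = 0.000691). Without DMSO hypoxia replicate 1 the rise in DMSO was 2.52-fold (log2 change 1.33, adjusted p = 8.02e-09). MLN4924 gave differences of 0.20 ± 0.17 in normoxia (adjusted p = 0.470), where the groups did not overlap, and 0.27 ± 0.17 in hypoxia (adjusted p = 0.272), where they did. Without that library the first was the same size and passed (adjusted p = 0.000874), and the second was 0.01 (adjusted p = 0.920).

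Loxl2, a lysyl oxidase with scavenger receptor domains, rose with hypoxia as well. It measured 41.1, 42.7 and 41.1 FPKM in DMSO normoxia and 75.8, 100.2 and 99.8 FPKM in DMSO hypoxia. The MLN4924 libraries measured 38.6, 34.4 and 38.4 FPKM in normoxia and 71.8, 69.0 and 66.9 FPKM in hypoxia. No 2 groups overlapped, and DMSO hypoxia replicate 1 was again below its group. Hypoxia raised Loxl2 2.16-fold in DMSO (log2 change 1.11 ± 0.10, adjusted p = 2.15e-05) and 1.84-fold in MLN4924 (0.88 ± 0.10, adjusted p = 0.000127). MLN4924 lowered it in hypoxia (log2 change -0.39 ± 0.10, adjusted p = 0.0150; -0.52 without DMSO hypoxia replicate 1). In normoxia the difference of -0.16 ± 0.10 was not called (adjusted p = 0.288), and it passed without that library at the same size (adjusted p = 0.0246).

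Loxl1, which is known for its part in elastic fibres, fell with hypoxia in DMSO. It measured 35.3, 35.7 and 35.9 FPKM in DMSO normoxia and 27.8, 30.0 and 28.2 FPKM in DMSO hypoxia. With MLN4924 it measured 39.0, 39.6 and 40.1 FPKM in normoxia and 38.4, 35.2 and 37.5 FPKM in hypoxia. The DMSO hypoxia libraries were below the other 9, while DMSO normoxia and MLN4924 hypoxia overlapped. The fall with hypoxia was 1.23-fold in DMSO (log2 change -0.30 ± 0.05, adjusted p = 0.00126), and the difference in MLN4924 was -0.09 ± 0.05 (adjusted p = 0.212). MLN4924 raised Loxl1 in hypoxia by 0.36 ± 0.05 (adjusted p = 0.000661; 0.34 without DMSO hypoxia replicate 1, adjusted p = 0.000421). In normoxia the difference was 0.15 ± 0.05 (adjusted p = 0.0692), and it passed without DMSO hypoxia replicate 1 (adjusted p = 0.0200).

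Loxl3, another lysyl oxidase with scavenger receptor domains, was raised by MLN4924 in both oxygen conditions. It measured 14.9, 15.8 and 17.3 FPKM in DMSO normoxia and 11.7, 13.7 and 14.6 FPKM in DMSO hypoxia. In the MLN4924 groups the values were 20.9, 21.2 and 19.9 FPKM in normoxia and 21.1, 19.7 and 20.7 FPKM in hypoxia. All 6 MLN4924 libraries were above all 6 DMSO libraries, and the 2 MLN4924 groups overlapped. MLN4924 raised Loxl3 1.28-fold in normoxia (log2 change 0.36 ± 0.08, adjusted p = 0.0141) and 1.5-fold in hypoxia (0.58 ± 0.08, adjusted p = 0.000730). The normoxia call was lost in 4 of 22 alternative settings, with adjusted p values from 0.0503 to 0.0863 there. The fall with hypoxia in DMSO was small (-0.24 ± 0.08, adjusted p = 0.0483), was lost without DMSO hypoxia replicate 1 (-0.16, adjusted p = 0.0901) and was lost in 17 of 22 alternative settings. In MLN4924 the difference was -0.01 ± 0.08 (adjusted p = 0.927).

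Loxl4, the remaining lysyl oxidase, stands outside the 10, and its rise with hypoxia was called in DMSO only. It averaged 15.5 ± 2.07 FPKM in DMSO normoxia and 21.1 ± 1.47 FPKM in DMSO hypoxia, a rise of 0.43 ± 0.10 on the log2 scale (adjusted p = 0.00979). That call was lost in 2 of 22 alternative settings, on the TPM scale (adjusted p = 0.0534) and with only the 2 groups fitted (adjusted p = 0.0573). In MLN4924 it averaged 15.2 ± 0.487 FPKM in normoxia and 14.7 ± 1.46 FPKM in hypoxia, a difference of -0.05 ± 0.10 (adjusted p = 0.777). The hypoxia effect in MLN4924 less that in DMSO was -0.48 ± 0.15 and was not called (limma adjusted p = 0.158). MLN4924 lowered it in hypoxia (-0.49 ± 0.10, adjusted p = 0.00600). Together the 5 lysyl oxidase genes summed to 195 ± 3.17 FPKM in DMSO normoxia, 343 ± 70.5 FPKM in DMSO hypoxia, 211 ± 3.88 FPKM in MLN4924 normoxia and 361 ± 6.42 FPKM in MLN4924 hypoxia; without DMSO hypoxia replicate 1 the mean of its group was 384 FPKM. Lox held 44.2% of this sum in DMSO normoxia, 54.1% in DMSO hypoxia (56.9% without replicate 1), 46.8% in MLN4924 normoxia and 60.8% in MLN4924 hypoxia. The share of Loxl2 was 27.0% in DMSO hypoxia and 19.2% in MLN4924 hypoxia.

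Whether the hypoxia response depended on MLN4924 was tested as an interaction, the log2 hypoxia effect in the MLN4924 groups less the one in the DMSO groups. Of the 10 genes, 1 passed in the positive direction, P4ha2 (background 0.958%), and 0 in the negative direction (background 0.926%), where limma also found 0 at an unadjusted p under 0.05. The P4ha2 interaction was 0.52 ± 0.10 (adjusted p = 0.0330), and it missed the threshold in 11 of 21 alternative settings, with adjusted p values from 0.0526 to 0.0978 there. P4ha1 gave 0.38 ± 0.10 (adjusted p = 0.0894), and passed without DMSO hypoxia replicate 1 (0.32, adjusted p = 0.0487). P4ha3 gave 0.56 ± 0.19 (adjusted p = 0.211) and Loxl1 0.21 ± 0.07 (adjusted p = 0.200). Without DMSO hypoxia replicate 1 the value of P4ha3 was 0.37 and was not called (adjusted p = 0.0669). Plod2 gave 0.00 ± 0.11 (adjusted p = 0.992), Plod1 0.13 ± 0.06 (adjusted p = 0.385) and Plod3 -0.05 ± 0.07 (adjusted p = 0.766). Loxl2 gave -0.23 ± 0.14 (adjusted p = 0.498) and passed without DMSO hypoxia replicate 1 (-0.36, adjusted p = 0.0201). Lox went from 0.07 ± 0.24 (adjusted p = 0.913) to -0.19 (adjusted p = 0.0433) without that library. The MLN4924 effect had the same sign in normoxia and in hypoxia for 9 of 10 genes, P4ha3 being the other, beside 69.6% of all tested genes. Plod3 entered that count with -0.02 ± 0.05 in normoxia, a value whose sign changed under some alternative settings.

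**Figure D4:**
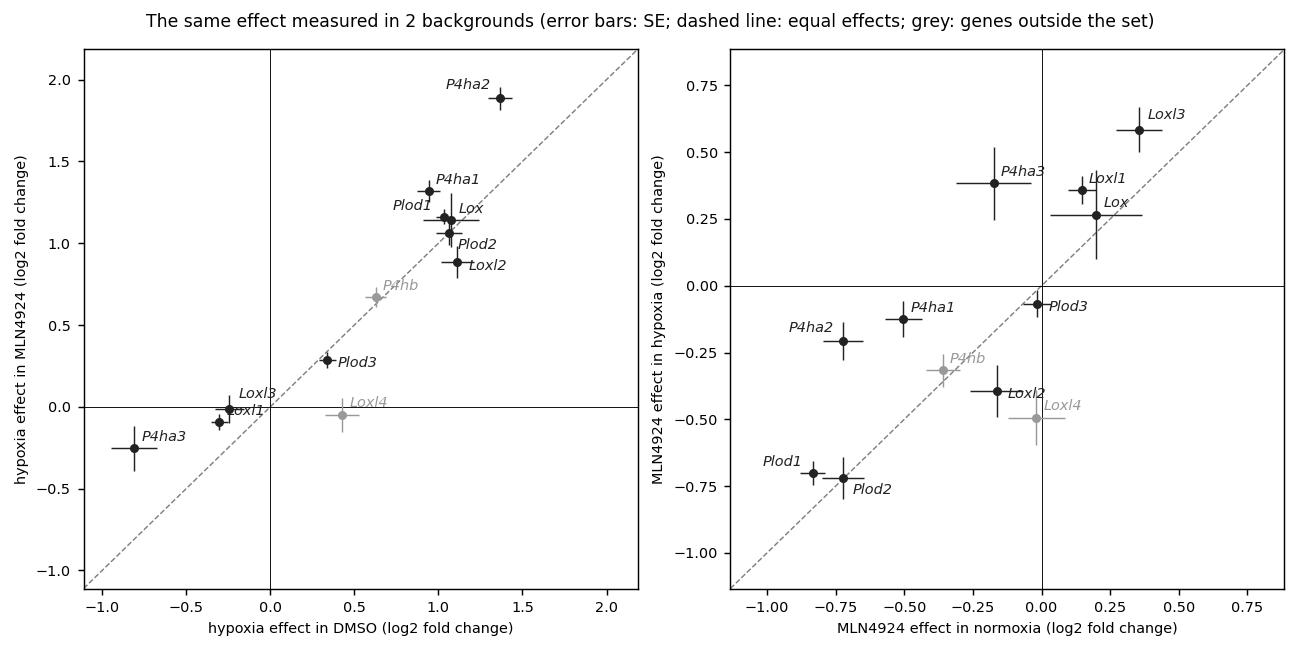
Left, log2 hypoxia effect with MLN4924 against that with DMSO. Right, log2 MLN4924 effect in hypoxia against that in normoxia (points, genes; bars, SE; dashed line, equal effects; grey, Loxl4 and P4hb outside the set). P4ha2 lies above the dashed line on the left at 1.88 against 1.37, and Plod2 lies on it in both panels.

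Among the substrates of these enzymes, of 11 tested collagens 5 rose and 4 fell with hypoxia in DMSO (13.8% and 19.4% of all tested genes), with a median log2 change of 0.14 beside -0.08. In MLN4924, 6 rose and 0 fell (11.7% and 16.5% of all tested genes), with a median of 0.37 beside -0.05 (0 falls also at an unadjusted limma p under 0.05). Col5a1, a chain of fibril-forming collagen V, rose from 34.7 ± 2.13 to 55.2 ± 7.96 FPKM in DMSO (log2 change 0.65 ± 0.11, adjusted p = 0.00118). Col6a2, a chain of collagen VI, fell from 49.9 ± 0.725 to 32.5 ± 5.38 FPKM (-0.62 ± 0.10, adjusted p = 0.000910). MLN4924 lowered 6 and raised 0 in normoxia (10.7% and 9.33% of all tested genes), with a median of -0.67. At an unadjusted limma p under 0.05 it raised 2 there. In hypoxia it lowered 7 and raised 3 (13.3% and 12.2% of all tested genes), with a median of -0.41. Col5a3 went from 13.1 ± 0.673 to 3.39 ± 0.762 FPKM with MLN4924 in normoxia (-1.69 ± 0.13, adjusted p = 1.34e-05) and Col6a1 from 162 ± 3.93 to 75.3 ± 1.3 FPKM (-1.09 ± 0.09, adjusted p = 2.02e-05). Col4a1, a basement membrane chain, was among those raised in hypoxia (0.74 ± 0.12, adjusted p = 0.00178). Without DMSO hypoxia replicate 1 its rise was 0.55 (adjusted p = 6.86e-06).

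The genes for folding and exporting collagen included 12 tested members, of which 1 rose and 4 fell with hypoxia in DMSO (median -0.14), and 1 rose and 2 fell in MLN4924 (median 0.03). The 1 that rose was P4hb in both. Over all tested genes 13.8% rose and 19.4% fell in DMSO, and 11.7% rose and 16.5% fell in MLN4924. Fkbp14, a prolyl isomerase of the endoplasmic reticulum, fell from 18.6 ± 0.0600 to 11.6 ± 1.01 FPKM in DMSO (-0.64 ± 0.09, adjusted p = 0.000321) and changed by -0.72 ± 0.09 in MLN4924 (adjusted p = 0.000207). MLN4924 lowered 4 and raised 0 of the 12 in normoxia (1 rise at an unadjusted limma p under 0.05), and lowered 4 and raised 1 in hypoxia. The shares over all tested genes were 10.7% lowered and 9.33% raised in normoxia, and 13.3% and 12.2% in hypoxia. Creb3l1, a transcription factor for collagen genes, changed by -0.68 ± 0.07 in normoxia (adjusted p = 9.77e-05) and by -0.69 ± 0.07 in hypoxia (adjusted p = 8.87e-05). Of 7 tested genes of prolyl 3-hydroxylation and collagen galactosylation, 2 rose and 1 fell with hypoxia in DMSO (median 0.02), and 1 rose in MLN4924 (median 0.04). With MLN4924, 2 of the 7 fell in normoxia, and 1 rose and 1 fell in hypoxia. The same shares over all tested genes stand beside these counts, and neither list was tested as a set. P3h3 rose from 2.12 ± 0.709 to 5.10 ± 0.791 FPKM in DMSO (0.99 ± 0.23, adjusted p = 0.00842), while P3h1 fell from 31.5 ± 0.205 to 22.9 ± 1.69 FPKM (-0.45 ± 0.07, adjusted p = 0.000593).

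Among 12 tested genes that process procollagen or help activate lysyl oxidases, 3 rose and 1 fell with hypoxia in DMSO (median 0.12). In MLN4924, 4 rose and 2 fell (median 0.30). Over all tested genes 13.8% rose and 19.4% fell in DMSO, and 11.7% rose and 16.5% fell in MLN4924. Fbln5, an elastic fibre protein, rose from 9.60 ± 0.585 to 17.2 ± 4.41 FPKM in DMSO (0.75 ± 0.15, adjusted p = 0.00386) and from 15.6 ± 0.750 to 36.8 ± 3.03 FPKM in MLN4924 (1.18 ± 0.15, adjusted p = 0.000310). Without DMSO hypoxia replicate 1 its rise in DMSO was 0.95 (adjusted p = 3.15e-05). MLN4924 raised 1 and lowered 4 of the 12 in normoxia (9.33% and 10.7% of all tested genes). In hypoxia it raised 2 and lowered 4 (12.2% and 13.3% of all tested genes). Pcolce, an enhancer of procollagen cleavage, fell from 276 ± 2.59 to 140.2 ± 5.06 FPKM with MLN4924 in normoxia (-0.97 ± 0.07, adjusted p = 6.49e-06). Fn1, fibronectin, was higher with MLN4924 in hypoxia by 1.34 ± 0.39 (adjusted p = 0.0300), and by 0.72 without DMSO hypoxia replicate 1 (adjusted p = 3.78e-06); the call was lost in 5 of 22 alternative settings. Of 6 tested genes that supply copper, ascorbate or zinc, 1 rose and 1 fell with hypoxia in DMSO (median 0.04), 2 rose and 1 fell in MLN4924 (median 0.20), and 1 fell with MLN4924 in normoxia (median -0.22). The shares over all tested genes are those given above for each contrast, and the 6 genes were not tested as a set. Slc39a13 rose with hypoxia in DMSO (0.44 ± 0.10, adjusted p = 0.00676). Slc31a2 rose with hypoxia in MLN4924 (0.50 ± 0.16, adjusted p = 0.0407), a call lost in 9 of 22 alternative settings. With MLN4924 in normoxia Slc31a2 fell (-0.54 ± 0.16, adjusted p = 0.0370), a call lost in 8 of 22. Atox1, a copper chaperone, fell with hypoxia in MLN4924 (-0.40 ± 0.11, adjusted p = 0.0173), a call lost in 3 of 22 alternative settings. In DMSO its change of -0.31 ± 0.11 was called (adjusted p = 0.0451), but not in 16 of 22 alternative settings, where adjusted p reached 0.160. Without DMSO hypoxia replicate 1 the change in DMSO was -0.44 and passed (adjusted p = 0.000820).

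Other oxygen-dependent hydroxylases and reference genes of the hypoxia response were measured beside the collagen enzymes. Of 6 tested hydroxylases, 4 rose and 2 fell with hypoxia in DMSO (median 0.83), and 4 rose and 1 fell in MLN4924 (median 0.65). MLN4924 lowered 3 of the 6 in normoxia (median -0.29) and 4 in hypoxia (median -0.38). Over all tested genes hypoxia raised 13.8% and lowered 19.4% in DMSO, and raised 11.7% and lowered 16.5% in MLN4924. MLN4924 raised 9.33% and lowered 10.7% of all tested genes in normoxia, and raised 12.2% and lowered 13.3% in hypoxia. Egln1, the main oxygen-sensing HIF prolyl hydroxylase, rose from 29.5 ± 1.00 to 113 ± 16 FPKM in DMSO (1.89 ± 0.08, adjusted p = 1.58e-07). All 10 reference genes rose with hypoxia in DMSO and in MLN4924, with a median log2 change of 2.08 and 2.07. MLN4924 lowered 7 and raised 1 of these 10 in normoxia (median -0.89) and lowered 9 in hypoxia (median -0.75). Car9, carbonic anhydrase IX, went from 48.0 ± 2.57 to 19.7 ± 0.666 FPKM with MLN4924 in normoxia (-1.24 ± 0.08, adjusted p = 6.23e-06). Adm, the peptide adrenomedullin, was the reference gene with an interaction, of -1.34 ± 0.18 (adjusted p = 0.00576), opposite in sign to that of P4ha2.

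For each of the 10 genes, the genes with the most alike pattern over the 12 libraries were found among 8123 tested genes with a mean of at least 5 FPKM. The measure was the Pearson correlation of log2(FPKM + 1), which here mostly follows the 4 groups. P4ha1 and P4ha2 were each other's most alike gene (r = 0.994), and the next for P4ha2 was Car9 (r = 0.989). For Plod1 the leading genes were Gpi1, a glycolytic enzyme (r = 0.996), and Bhlhe40 (r = 0.992), and for Plod2 they were Plod1 (r = 0.989) and Eno1 (r = 0.989). Vegfa led for Plod3 (r = 0.977), Jmy for Lox (r = 0.985), Foxo3 for Loxl2 (r = 0.990), G6pdx for Loxl1 (r = 0.979), Ctdp1 for Loxl3 (r = 0.968) and Pik3r1 for P4ha3 (r = 0.984). Each value is a description over libraries that share their groups.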

How the data were processed

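RNA was sequenced in 12 libraries, 3 in each of 4 groups, and grouped by the sample titles. The authors deposited FPKM per gene symbol with 2 decimals; the submitters' processing notes name fastp, STAR, RSEM 1.3.3 and build mm39 without their order, and annotation and strand are not given in the sources used here. FPKM hold no counts, so depth is unknown and count models were not used. Values were taken as log2(FPKM + 1), which understates changes of low genes. The filter kept genes that reached 1 FPKM in 3 or more libraries. The limma fit (3.58.1, under R 4.3.3) estimated a mean for each of the 4 groups, with shared spread and an intensity trend. P-values for 5 contrasts were two-sided and Benjamini-Hochberg adjusted over 12311 genes, with a threshold of 0.05. An exact permutation test of 3 against 3 cannot go below 0.1. The fit was also run on simulated data in which each gene had the same spread in every library. That setting does not cover a library set apart, as DMSO hypoxia replicate 1 is.

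The members and lists were chosen with earlier results of these data known. All 10 members, Loxl4 and P4hb are named. Genes named from 7 pathway lists (71 genes) are among the up to 2 per contrast with the largest called change. Not all of those are printed. For likeness, 3 genes per member were ranked by correlation. Promoter windows came from RefSeq (GRCm38.p6), a build other than that of the FPKM, and were used for sequence only. Alternatives covered pseudocount, filter, scaling, trend, weights, the samples fitted, a replicate block and leaving out each library.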

Additional observations from a re-analysis of the deposited data

Results flagged for a closer look

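On the log2 scale, the hypoxia response of P4ha2 differed between DMSO and MLN4924 in the main fit, by the test of the difference itself. The interaction was 0.52 ± 0.10 on the log2 scale (limma adjusted p = 0.0330), with P4ha2 2.58-fold higher in hypoxia in DMSO and 3.69-fold higher in MLN4924. All 3 MLN4924 normoxia libraries were below the DMSO normoxia libraries, and all 3 MLN4924 hypoxia libraries were below the DMSO hypoxia libraries. Mean FPKM went from 59.5 to 155 with hypoxia in DMSO and from 35.6 to 134 in MLN4924. A difference in response on the FPKM scale was not tested. The log2 interaction ranged from 0.46 to 0.60 over the alternative settings, and its adjusted p from 0.0123 to 0.0978. It missed the threshold in 11 of 21 of them.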

How the results depend on the processing

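Of 1090 values recomputed for the 10 genes under an alternative, 1012 kept their direction and side of the threshold, 35 lost a call, 24 gained one and 19 changed sign. The 7 rises with hypoxia in DMSO and in MLN4924 were called under every alternative. Besides the hypoxia call of Loxl3 and the interaction of P4ha2, the call of Loxl3 with MLN4924 in normoxia was lost in 4 of 22 settings and that of Loxl2 with MLN4924 in hypoxia in 3 of 22. Outside the 10, the P4hb call with MLN4924 in hypoxia was lost in 1 of 22. Depth is unknown, so what it limits could not be given, and 3 libraries per group limit every estimate.

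Signs changed in uncalled values near 0, the cause being not tested, with 1 exception (Lox without DMSO hypoxia replicate 1). The MLN4924 effect in normoxia became 0.012 for Plod3 and 0.0074 for Loxl4 with median-of-ratios scaling, and leaving out 1 library gave -0.046 to 0.0026 for Plod3 and -0.13 to 0.039 for Loxl4. The hypoxia effect in MLN4924 became 0.0060 (TPM scale) and 0.037 (median-of-ratios) for Loxl3 and 0.0015 (median-of-ratios) for Loxl4, and leaving out 1 library gave -0.039 to 0.013 for Loxl3 and -0.11 to 0.022 for Loxl4. The interaction of Lox was -0.18 with array weights and ran from -0.19 (without DMSO hypoxia replicate 1) to 0.21 with 1 library left out. That of Plod2 was -0.0092 with median-of-ratios scaling, -0.00065 with array weights and -0.073 to 0.065 with 1 library left out, and that of Plod3 was 0.021 on the TPM scale.

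Fitting only the libraries of the 2 groups compared gave 944 rises and 1280 falls over all tested genes for hypoxia in DMSO, 1928 and 2140 for MLN4924 in normoxia, and 621 and 643 for MLN4924 in hypoxia. Array weights gave 2098 rises and 2426 falls for MLN4924 in normoxia, 2236 and 3103 for hypoxia in MLN4924, and 478 and 365 for the interaction. Among the 10 genes, rises with MLN4924 in normoxia numbered 0 on the TPM scale, 2 with median-of-ratios scaling, 3 with array weights and 3 with 2 groups fitted. Array weights gave 5 falls with MLN4924 in hypoxia, 3 interaction rises and 1 interaction fall. Falls with hypoxia in MLN4924 numbered 1 with array weights and 1 with 2 groups fitted. Interaction rises numbered 0 with no filter, 0 on the TPM scale and 0 with no intensity trend.

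Leaving out 1 library at a time moved the rises over all tested genes to between 771 and 1976 and the falls to between 853 and 2236 for MLN4924 in normoxia, the rises to between 1063 and 2189 for hypoxia in MLN4924, and the interaction to between 42 and 408 rises and 48 and 270 falls. The upper ends of these came without DMSO hypoxia replicate 1. Among the 10 genes it gave 0 to 3 rises with MLN4924 in normoxia, 2 to 5 falls with MLN4924 in hypoxia, 0 to 1 falls with hypoxia in MLN4924, and 0 to 2 rises and 0 to 2 falls in the interaction.

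With the replicate number as a block, the interaction gave 56 rises over all tested genes in place of 118. The samples share only a number: the deviations of 18 same-numbered pairs correlated at -0.07 to 0.0993. For 4 of 12 libraries, the mean correlation with the other groups was highest for the libraries of their own number among the 3 numbers. With the block, the hypoxia call of Loxl3 in DMSO was lost, so 2 of 10 genes fell in place of 3. Median-of-ratios scaling moved the share of calls that were rises from 41.5% to 52.0% for hypoxia in DMSO and from 41.4% to 50.3% for hypoxia in MLN4924.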
